A study of Mus musculus with 8 samples.

Results

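The transcriptome of UNC0642-treated Setdb1 KO mESCs was compared with that of Setdb1 KO mESCs, to ask which genes and transposable elements change further when G9a and GLP are inhibited in cells that lack SETDB1. The comparison rests on 4 of the 8 poly(A) RNA-seq libraries of the series, 2 biological replicates of each condition, chosen by their titles. All 8 libraries came from 1 mouse embryonic stem cell line, #33-6, which carries a conditional Setdb1 allele and was grown on gelatin without feeder cells. WT mESCs were this line untreated, and UNC0642-treated mESCs received 2 µM UNC0642, an inhibitor of the catalytic activity of G9a and GLP, for 3 days. Setdb1 KO mESCs received 800 nM 4-OHT, the tamoxifen metabolite that activates the recombinase, for 5 days. The labels of UNC0642-treated Setdb1 KO mESCs give 800 nM 4-OHT for 2 days followed by 2 µM UNC0642 for 3 days, whereas the methods of the study give 5 days of 4-OHT for the deletion. Under the labels, the inhibitor and the days of 4-OHT cannot be told apart in this comparison. One line stands for 1 clone, so the p-values concern cultures of that clone only. In the main fit they measure the spread left after the difference between replicate numbers is removed, pooled over all 8 libraries.

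SETDB1 deposits H3K9me3 and is best known in mESCs for silencing endogenous retroviruses, to which it is brought by KRAB zinc finger proteins and TRIM28. G9a and GLP, encoded by Ehmt2 and Ehmt1, form a heterodimer that deposits H3K9me1 and H3K9me2 over broad parts of the genome. In mESCs, G9a and GLP are also part of a polycomb complex, PRC1.6, whose subunits MGA, MAX and E2F6 bind E-box and E2F sites in promoters of germline genes. Both pathways are known to hold down germline genes and the genes and MERVL repeats of the 2-cell embryo.

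The total count was between 11702590 and 26807807 per library, with 26807807 and 16416611 for Setdb1 KO mESCs and 11897456 and 26250060 for the same cells treated with UNC0642. The deposited counts cover 24062 genes and 1153 transposable element subfamilies, of which 15313 and 932 passed the filter on low counts. Levels are given as CPM, the counts relative to the TMM-scaled library total, in the order of replicates 1 and 2, and 3 counts correspond to between 0.108 and 0.311 CPM. Changes are log2 fold changes with their SE from edgeR's quasi-likelihood test, in which the replicate number entered as a block. A gene or subfamily was called at a Benjamini-Hochberg adjusted p under 0.05. Summed over 20 pluripotency factors, the level was between 5336 and 8340 CPM in all 8 libraries. Of the 10 fibroblast markers, 7 passed the filter and none was at 0 in all libraries, and their summed level was 5.63 and 25.3 CPM in Setdb1 KO mESCs and 10.6 and 20.1 CPM with UNC0642.

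Setdb1 stood at 169 and 127 CPM in WT mESCs and at 130 and 86.4 CPM in UNC0642-treated mESCs. It stood at 47.3 and 51.0 CPM in Setdb1 KO mESCs and at 61.1 and 34.1 CPM after adding UNC0642. All 4 KO libraries lay below all 4 libraries without 4-OHT, and the KO libraries with and without UNC0642 overlapped. The change on adding UNC0642 was -0.12 ± 0.27, with an adjusted p of 0.925 in edgeR's test, although its sign turned when KO replicate 2 or KO_UNC replicate 2 was left out. The counts cover the whole transcript, so the deleted part is not resolved. Ehmt2 was at 86.0 and 118 CPM without and at 60.6 and 61.6 CPM with the inhibitor (-0.70 ± 0.28, adjusted p = 0.413), and Ehmt1 at 73.5 and 71.8 CPM without and 76.1 and 59.2 CPM with it (-0.11 ± 0.24, adjusted p = 0.92).

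Adding UNC0642 to Setdb1 KO mESCs upregulated 18 genes and downregulated 1 gene, Stag3, and raised 2 transposable element subfamilies, MER121 and ORR1A1-int. The upregulated genes included 6 neighbours on the X chromosome (Gm15023, Pramel3, Gm5128, Gm7903, AV320801 and Nxf3), members of the 2-cell embryo program (Usp17lb and Tdpoz5), and genes of male germ cells (Asz1 and Pdha2). Their log2 fold changes ranged from 2.52 to 5.91 with a median of 4.59, and 14 of the 18 changed by more than 10-fold. The 18 genes are 0.118% of the genes tested and the 14 are 0.0914%, while Stag3 is 0.00653% and the 2 subfamilies are 0.215% of the subfamilies tested. At an unadjusted p under 0.05, 756 genes (4.94%) were higher and 884 (5.77%) lower, and 96 subfamilies (10.3%) were higher and 1 (0.107%) lower. In bulk RNA, a change in the share of cells that express a gene and a change in the level per cell cannot be told apart.

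In all 18 upregulated genes, both UNC0642-treated libraries lay above both untreated Setdb1 KO libraries, as they did for 12.2% of all genes tested. The 18 genes were chosen on these same libraries, so the separation is no independent support for the calls. The number of calls depended on the replicate block and on single libraries. Without the block edgeR called 0 genes and 0 subfamilies, with 430 genes higher and 290 lower at an unadjusted p under 0.05 and adjusted p-values of the 18 genes between 0.177 and 0.690. With the block, 0 genes were called higher without KO replicate 1, without KO_UNC replicate 1 or without KO_UNC replicate 2, and 5 without KO replicate 2, whereas 170 were called without WT replicate 1 and 200 without WT replicate 2. DESeq2 with the block on all 8 libraries called 269 genes higher and 121 lower. In each of the 21 other settings run, all 18 genes were higher. In each setting that kept both libraries of the conditions compared, their unadjusted p was under 0.05. Among these, a prior count of 2 does not alter the p-values, and the others reuse the libraries on which the genes were chosen. The agreement is therefore largely built in.

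**Figure D1:**
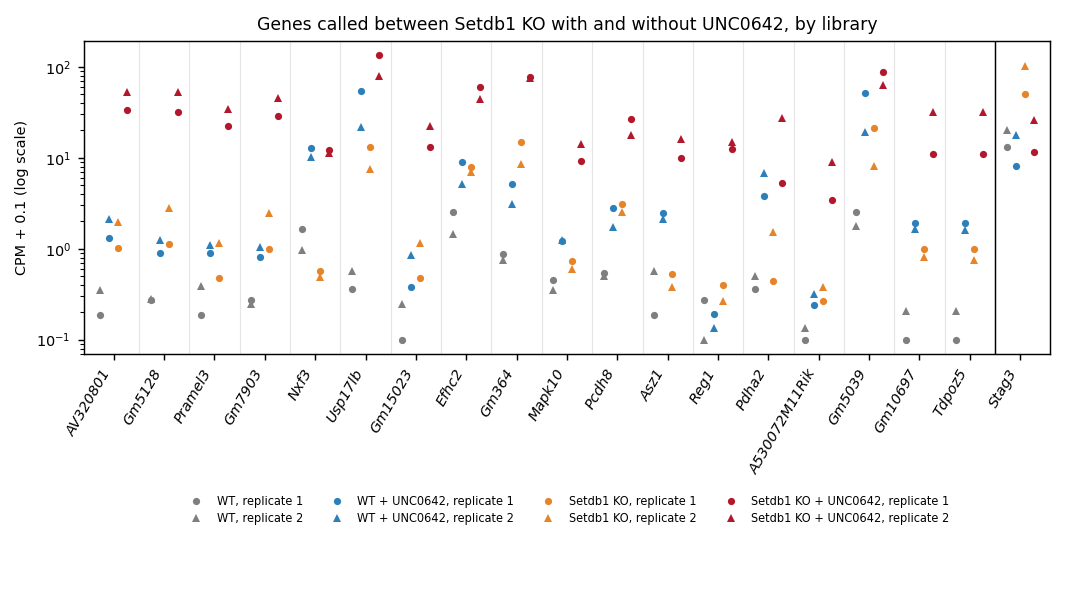
Levels of the 18 upregulated genes and of Stag3 (right of the black line) in each of the 8 libraries, in CPM plus 0.1 on a log axis; circles are replicate 1 and triangles replicate 2. Both libraries of UNC0642-treated Setdb1 KO mESCs lie above both Setdb1 KO libraries for each of the 18 genes and below both for Stag3.

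Of the X-linked genes, 5 are near copies of each other and belong to the PRAME family of leucine-rich repeat proteins expressed in germ cells. AV320801 (chrX:135494554-135504755) was at 0.931 and 1.87 CPM in Setdb1 KO mESCs and at 33.2 and 52.6 CPM after adding UNC0642, from 22 and 34 counts to 320 and 1431 (4.97 ± 0.35, adjusted p = 0.00566, edgeR). Pramel3 (chrX:135302289-135312636) went from 0.381 and 1.05 CPM to 22.2 and 34.1 CPM, with 9 and 19 against 214 and 927 counts (5.38 ± 0.45, adjusted p = 0.00704, edgeR). Neither gene had an untreated library near a treated one. Gm5128, Gm7903 and Gm15023 rose by 4.58 ± 0.38, 4.59 ± 0.41 and 4.73 ± 0.50 on the log2 scale. The longest annotated transcripts of the 5 genes were between 94.3% and 99.9% identical when aligned end to end, and TEtranscripts shares reads that map to several places. Their separate values are therefore uncertain, and the 5 changes may be fewer independent ones.

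The 5 copies also share their promoters, which are shown because the genes moved together. The RefSeq windows of 250 bases used as promoters (GRCm38.p6) were between 86.2% and 100% identical when aligned end to end. Those of Gm5128 and Gm7903 were the same. Each window reaches a short way past the outermost start of its gene. Below, CG dinucleotides are in capitals, and each line runs 5′ to 3′ on the strand of the gene.
Pramel3, chrX:135302066-135302315, plus strand: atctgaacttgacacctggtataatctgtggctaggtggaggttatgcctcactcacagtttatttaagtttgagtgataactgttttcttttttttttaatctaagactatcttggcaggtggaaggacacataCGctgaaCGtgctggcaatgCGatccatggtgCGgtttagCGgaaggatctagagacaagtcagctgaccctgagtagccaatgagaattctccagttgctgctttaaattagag
Gm5128, chrX:135373034-135373283, plus strand: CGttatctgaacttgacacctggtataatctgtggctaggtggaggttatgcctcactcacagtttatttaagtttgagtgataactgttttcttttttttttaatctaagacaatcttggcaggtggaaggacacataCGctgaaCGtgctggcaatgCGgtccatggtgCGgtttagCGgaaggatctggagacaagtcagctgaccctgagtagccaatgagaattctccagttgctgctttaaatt
AV320801, chrX:135494338-135494587, plus strand: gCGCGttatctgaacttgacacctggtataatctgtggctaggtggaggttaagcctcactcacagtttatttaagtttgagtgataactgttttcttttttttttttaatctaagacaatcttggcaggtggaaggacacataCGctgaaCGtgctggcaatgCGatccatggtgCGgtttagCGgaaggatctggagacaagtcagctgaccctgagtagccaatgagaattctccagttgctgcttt
Gm15023, chrX:135177615-135177864, minus strand: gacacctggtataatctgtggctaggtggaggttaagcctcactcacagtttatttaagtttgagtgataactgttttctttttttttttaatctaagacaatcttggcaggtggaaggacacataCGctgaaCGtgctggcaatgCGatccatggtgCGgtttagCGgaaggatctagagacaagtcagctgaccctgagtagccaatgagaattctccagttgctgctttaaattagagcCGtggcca
These windows hold between 5 and 7 CG dinucleotides each. None of the 5 holds the E-box letters CACGTG or the E2F letters TCCCGC, searched on both strands. Of the 18 upregulated genes, 15 had a promoter in the table, of which 1 (6.67%) held CACGTG and 0 held TCCCGC. Over the 11969 promoters of tested genes these shares were 8.24% and 29.2%, and over all 27025 promoters 6.05% and 16.9%. The upregulated genes' promoters had a median of 6 CG dinucleotides (range 0 to 15), against 15 for tested genes and 6 for all promoters. A match of letters is a description of the window and not evidence of binding.

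Nxf3, an X-linked member of the nuclear RNA export factor family, lies beyond these copies at chrX:136071523-136139579. It was at 0.466 and 0.385 CPM in Setdb1 KO mESCs and at 12 and 11.3 CPM with UNC0642 (4.78 ± 0.43, adjusted p = 0.00791, edgeR). From Gm15023 to Nxf3 the interval spans 0.972 Mb and holds 19 tested genes. Of these, 6 were called, 8 were higher at an unadjusted p under 0.05 and 12 were higher in both replicate pairs. The shares over all genes tested were 0.118%, 4.94% and 26.8%. Both ends of the interval are called genes, and the called genes other than Nxf3 are the near copies. The counts are therefore a description of an interval drawn around the calls. Prame, the namesake of the family, was at 0.0423 and 0.0550 CPM without and 3.53 and 1.10 CPM with UNC0642, from 1 and 1 counts to 34 and 30, and did not pass (adjusted p = 0.121). Of the neighbours between Prame and Nxf3, Armcx5 (0.06 ± 0.31), Gprasp1 (-0.08 ± 0.23) and Bhlhb9 (-0.14 ± 0.23) lay within their SE of 0. Arxes2 stood at 0.37 ± 0.30, Arxes1 at 0.35 ± 0.33 and Bex2 at 0.72 ± 0.29, the last with an unadjusted p of 0.0353, and none of these 6 genes passed (adjusted p = 0.415 for Bex2, edgeR).

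**Figure D2:**
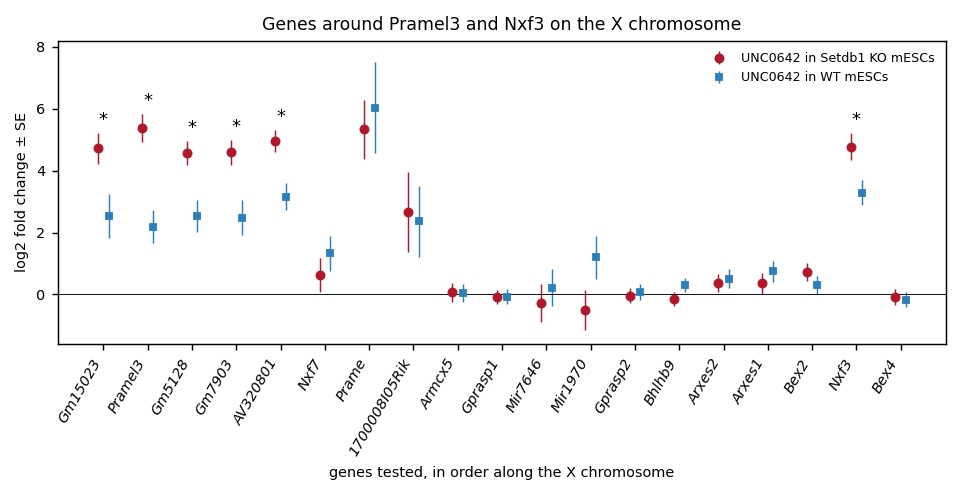
Log2 fold change (± SE) on adding UNC0642 for the 19 tested genes of the X-linked interval, in their order along the chromosome, in Setdb1 KO mESCs (red) and WT mESCs (blue); asterisks mark the 6 genes called in Setdb1 KO mESCs. The 5 PRAME family copies on the left and Nxf3 near the right end stand between 4.58 and 5.38 in Setdb1 KO mESCs. Armcx5, Gprasp1, Gprasp2, Bhlhb9 and Bex4 stand within 0.14 of 0 and Bex2, Arxes2 and Arxes1 at 0.72, 0.37 and 0.35. Prame, 1700008I05Rik and Nxf7, which were not called, stand at 5.33, 2.67 and 0.64, and Mir7646 and Mir1970 at -0.29 and -0.52.

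With Efhc2, which encodes an EF-hand protein of cilia, and Gm364, 8 of the 18 upregulated genes (44.4%) were X-linked, 5 of them the near copies described above. The X chromosome holds 592 of the 15242 tested genes with a position (3.88%). It held 66 of 747 genes (8.84%) that were higher at an unadjusted p under 0.05 and 15 of 878 (1.71%) that were lower. The median log2 fold change of all X-linked genes was 0.07, against -0.05 for the other genes.

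The other upregulated genes lie on autosomes. Asz1, which encodes a germ cell protein needed for piRNA-mediated silencing of transposons, was at 0.423 and 0.275 CPM in Setdb1 KO mESCs and at 9.86 and 15.9 CPM with UNC0642 (5.11 ± 0.62, adjusted p = 0.0313, edgeR). Pdha2, the testis form of a pyruvate dehydrogenase subunit, went from 0.339 and 1.43 CPM to 5.19 and 27.5 CPM (4.11 ± 0.53, adjusted p = 0.0381). Its treated libraries lay apart from each other but both above the untreated ones. Reg1, a secreted lectin-like protein of the pancreas, had the largest change of the 18, from 7 and 3 counts to 121 and 401 counts (5.91 ± 0.73, adjusted p = 0.0313). Mapk10, which encodes the neuronal JNK3 kinase, rose by 4.34 ± 0.49, and Pcdh8, a protocadherin, by 3.01 ± 0.36. The list also held the lncRNA A530072M11Rik (4.65 ± 0.60) and the transcribed pseudogene Gm5039 (2.52 ± 0.33).

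Usp17lb, a deubiquitinase gene of the 2-cell embryo, was at 13.1 and 7.48 CPM in Setdb1 KO mESCs and at 135 and 79.6 CPM with UNC0642 (3.39 ± 0.35, adjusted p = 0.0191, edgeR). Tdpoz5, a TD and POZ domain gene of the same stage, went from 0.889 and 0.660 CPM to 10.9 and 31.6 CPM (4.63 ± 0.63, adjusted p = 0.0458). Gm10697 gave nearly the same counts as Tdpoz5, and their transcripts are 100% identical, so the 2 calls may be 1. Aligned end to end, the transcripts of the 5 Usp17l genes were between 53.6% and 81.0% identical. Their annotated lengths differ, with 2656 bases for Usp17la and 1558 for Usp17lb, which lowers these values. The values therefore do not show how far these genes share reads.

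Stag3, a cohesin subunit of meiotic chromosomes (chr5:138272514-138312397), was the gene that fell. It was at 13.1 and 20.2 CPM in WT mESCs, 7.94 and 17.7 CPM in UNC0642-treated mESCs, 50.9 and 102 CPM in Setdb1 KO mESCs, and 11.5 and 26.3 CPM in UNC0642-treated Setdb1 KO mESCs. With the inhibitor, the Setdb1 KO libraries thus spanned the WT libraries, and both lay below the untreated Setdb1 KO libraries (-2.04 ± 0.26, adjusted p = 0.0381, edgeR). The change in WT mESCs was -0.45, and the interaction, the change in Setdb1 KO mESCs minus that in WT mESCs, was -1.59 with an unadjusted p of 0.00204 and no feature passing after adjustment. The RefSeq promoter of Stag3 (GRCm38.p6) is shown because it holds the E-box letters, in capitals. This window lies inside the gene as placed above, downstream of its outermost start.
Stag3, chr5:138280259-138280508, plus strand: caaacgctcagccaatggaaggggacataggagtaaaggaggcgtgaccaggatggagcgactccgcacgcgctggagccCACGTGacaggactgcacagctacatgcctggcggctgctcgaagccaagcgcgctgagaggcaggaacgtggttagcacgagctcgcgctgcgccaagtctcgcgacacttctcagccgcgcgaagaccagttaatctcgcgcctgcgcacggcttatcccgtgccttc
It holds 26 CG dinucleotides and no match to TCCCGC in this window. The next lower genes by p did not pass: Pde4a, a cAMP phosphodiesterase (-2.09 ± 0.32, adjusted p = 0.0618), Unc13b, a synaptic vesicle priming protein (-2.14 ± 0.33, adjusted p = 0.0691), Phf21a, a subunit of the LSD1 complex (-1.45 ± 0.23, adjusted p = 0.0735), and Grin1, an NMDA receptor subunit, with 59 and 83 counts without and 1 and 2 counts with UNC0642 (adjusted p = 0.0752).

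The genes Gm4971, Trpd52l3 and Nlrp4c, which the study shows as examples, are given as a description. Gm4971, a transcribed pseudogene, was at 2.96 and 0.605 CPM in Setdb1 KO mESCs and at 35.4 and 23.4 CPM with UNC0642 (4.17 ± 0.59, adjusted p = 0.0511, edgeR). Trpd52l3, as the files spell it, had 0 counts in both Setdb1 KO libraries and 39 and 21 counts with UNC0642, which is at least 16.5-fold higher over a floor of 3 counts per library (adjusted p = 0.137), with bounds of 31.9-fold in replicate 1 and 4.68-fold in replicate 2. Nlrp4c, an NLR family gene of the oocyte, was at 85.7 and 68.9 CPM without and at 186 and 68.4 CPM with UNC0642 (0.55 ± 0.38, adjusted p = 0.677), so its libraries overlapped.

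UNC0642 was also added to WT mESCs. These 4 libraries are outside the contrast that chose the 18 genes. They do enter the same fit, which shares its estimate of spread and its replicate block, so the values in WT mESCs are not fully independent of the choice. Of the 18 genes, 17 were higher in both WT replicate pairs, against 26.3% of all genes tested, and 17 had an unadjusted p under 0.05, against 5.39% of all genes. Reg1 was the exception, with 2 and 0 counts before and 2 and 1 counts after treatment of WT mESCs. The near copies on the X chromosome can share reads, as can Tdpoz5 and Gm10697, so the 17 may stand for fewer independent genes. Of the 18, 4 passed the adjusted test in WT mESCs as well (AV320801, Nxf3, Usp17lb and Gm5039), and the median log2 fold change was 2.66 there. Some of them stayed low where SETDB1 was present. Pramel3 reached 0.799 and 1.01 CPM in UNC0642-treated mESCs, from 0.0871 and 0.289 CPM in WT mESCs. Asz1 reached 2.40 and 2.05 CPM, against 9.86 and 15.9 CPM in UNC0642-treated Setdb1 KO mESCs. Nxf3 reached 12.8 and 10.2 CPM, a level that overlapped that of UNC0642-treated Setdb1 KO mESCs.

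In WT mESCs, UNC0642 upregulated 27 genes (0.176%). All 27 were higher in both Setdb1 KO pairs, 26 of them at an unadjusted p under 0.05, and 4 were called there. Their median log2 fold change was 4.55 in WT mESCs, which chose them, and 2.32 in Setdb1 KO mESCs. No gene or subfamily passed the interaction test in edgeR, with 127 genes (0.829%) above 0 and 241 (1.57%) below 0 at an unadjusted p under 0.05, whereas DESeq2 on the same libraries called 7 genes. The smallest edgeR interaction p-values belonged to Usp17le, Clec2i, Pnliprp2, Pkp2 and Usp17la. Usp17le, a deubiquitinase gene, was at 0.784 and 1.41 CPM in WT, 53.4 and 35.9 CPM in UNC0642-treated, 29.3 and 22.5 CPM in Setdb1 KO and 73.5 and 42.4 CPM in UNC0642-treated Setdb1 KO mESCs, giving an interaction of -4.04 (unadjusted p = 3.31e-05). Clec2i, a C-type lectin-like gene, stood at 66.0 and 67.3 CPM in Setdb1 KO mESCs and at 77.1 and 84.5 CPM with UNC0642, whereas in WT mESCs it went from 0.871 and 0.974 to 9.07 and 6.12 CPM (interaction -2.71). Pkp2, a desmosomal plakophilin, went the other way, at 69.1 and 40.3 CPM without and 193 and 129 CPM with UNC0642 in Setdb1 KO mESCs (1.57 ± 0.23, adjusted p = 0.0511), and at 61.6 and 46.8 against 57.6 and 35.8 CPM in WT mESCs.

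**Figure D3:**
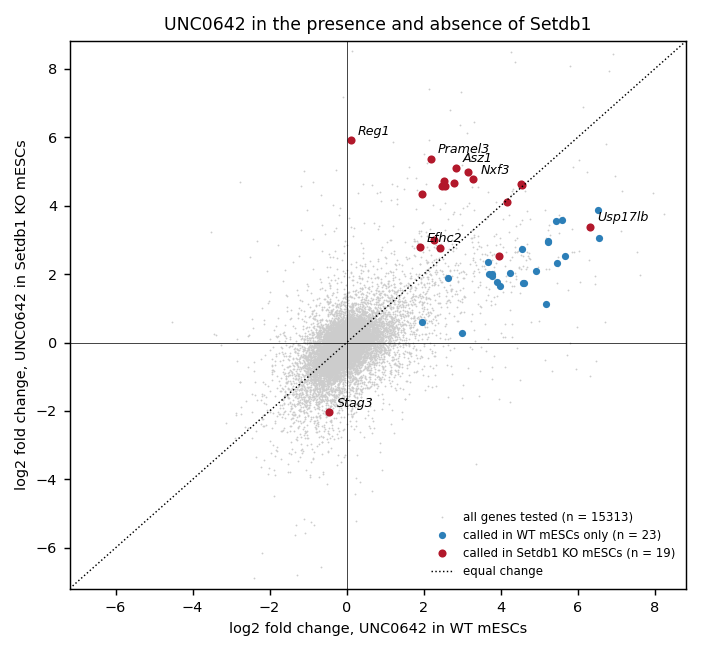
Log2 fold change on adding UNC0642 in Setdb1 KO mESCs (vertical axis) against that in WT mESCs (horizontal axis) for the 15313 genes tested; red points are the 19 genes called in Setdb1 KO mESCs and blue points the genes called in WT mESCs alone. Reg1 lies near 0 on the horizontal axis, Usp17lb lies below the dotted line of equal change, as do the blue points.

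The gene lists were described by counts and medians, beside a median of -0.04 over all genes. Over the 15313 genes tested, DESeq2 with the block called 269 higher and 121 lower. At an unadjusted p under 0.05 in edgeR, 4.94% of genes were higher and 5.77% lower. In both replicate pairs, 26.8% were higher and 34.2% lower. These are the shares to set beside every gene list below. Among 2-cell embryo genes, 24 of the 26 tested were higher in both pairs and 22 at an unadjusted p under 0.05, against 26.8% and 4.94% of all genes. The list holds several members each of the Zscan4, Usp17l, Tdpoz and Tcstv families. Members of 1 family can share reads, so the counts may stand for fewer independent genes. Usp17lb and Tdpoz5 were called, DESeq2 called 14, and the median was 2.06. Members that did not pass included Tdpoz4, at 2.46 and 0.715 CPM without and 15.3 and 17.0 CPM with UNC0642 (adjusted p = 0.126), and Usp17la (2.32 ± 0.37, adjusted p = 0.0752). In WT mESCs the median of the list was 4.39. Its summed level was 247 and 317 CPM in WT, 1959 and 836 CPM in UNC0642-treated, 1269 and 565 CPM in Setdb1 KO and 3372 and 1798 CPM in UNC0642-treated Setdb1 KO mESCs, so within each replicate number it was highest with both treatments. For 14 of its members the interaction lay below 0 at an unadjusted p under 0.05, that is, the fold change was smaller in Setdb1 KO mESCs, where these genes started higher.

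Of 38 Mage, Rhox and Xlr genes in the files, X-linked families of the germline and placenta, 24 were tested. None was called by edgeR and 6 by DESeq2, while 14 were higher at an unadjusted p under 0.05 and 18 in both pairs, with a median of 1.72. Here too, and among the Pramel and Pramef genes below, members of 1 family can share reads and may be fewer independent genes. Magea8 had 0 counts in both Setdb1 KO libraries and 8 and 64 counts with UNC0642, at least 10.9-fold higher over the floor of 3 counts (adjusted p = 0.126), with bounds of 6.54-fold in replicate 1 and 14.3-fold in replicate 2. Xlr4a was at 0.635 and 0.385 CPM without and 4.67 and 3.09 CPM with UNC0642 (2.89 ± 0.65, adjusted p = 0.155). Of 11 tested Pramel and Pramef genes, Pramel3 was called, DESeq2 called 4, and 6 were higher at an unadjusted p under 0.05, with a median of 2.04. Pramef17 was at 1.65 and 1.32 CPM without and 9.76 and 7.54 CPM with UNC0642 (2.53 ± 0.47, adjusted p = 0.121).

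Germline and meiosis genes outside these families included both higher and lower members. Among 35 tested germline genome defence genes, 1 was called higher (Asz1) and 0 lower by edgeR, and 3 in each direction by DESeq2. At an unadjusted p under 0.05, 5 were higher and 7 lower, and 10 were higher and 19 lower in both pairs, against 26.8% and 34.2% of all genes. The median was -0.47. Rpl10l, a ribosomal protein of late spermatogenesis, stood at 34.3 and 28.4 CPM without and 92.8 and 149 CPM with UNC0642 (1.87 ± 0.32, adjusted p = 0.0886). Tex11, an X-linked gene of meiotic recombination, stood at 46.1 and 51.3 CPM without and 14.3 and 19.7 CPM with it, against 14.1 and 11.5 CPM in WT mESCs (-1.51 ± 0.28, adjusted p = 0.121). Among 31 meiosis genes, Stag3 was called lower, 0 were higher and 5 lower at an unadjusted p under 0.05, and the median was -0.46. The meiotic cohesin subunit Rec8 was at 7.45 and 15.3 CPM without and 3.01 and 3.38 CPM with UNC0642 (-1.79 ± 0.41, adjusted p = 0.163). Hormad2, of the meiotic chromosome axis, was at 6.18 and 4.79 CPM without and 1.14 and 2.1 CPM with it (-1.82 ± 0.50, adjusted p = 0.223). Of 17 oocyte genes, 0 were called by edgeR and 3 by DESeq2, and 2 were higher and 2 lower at an unadjusted p under 0.05.

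**Figure D4:**
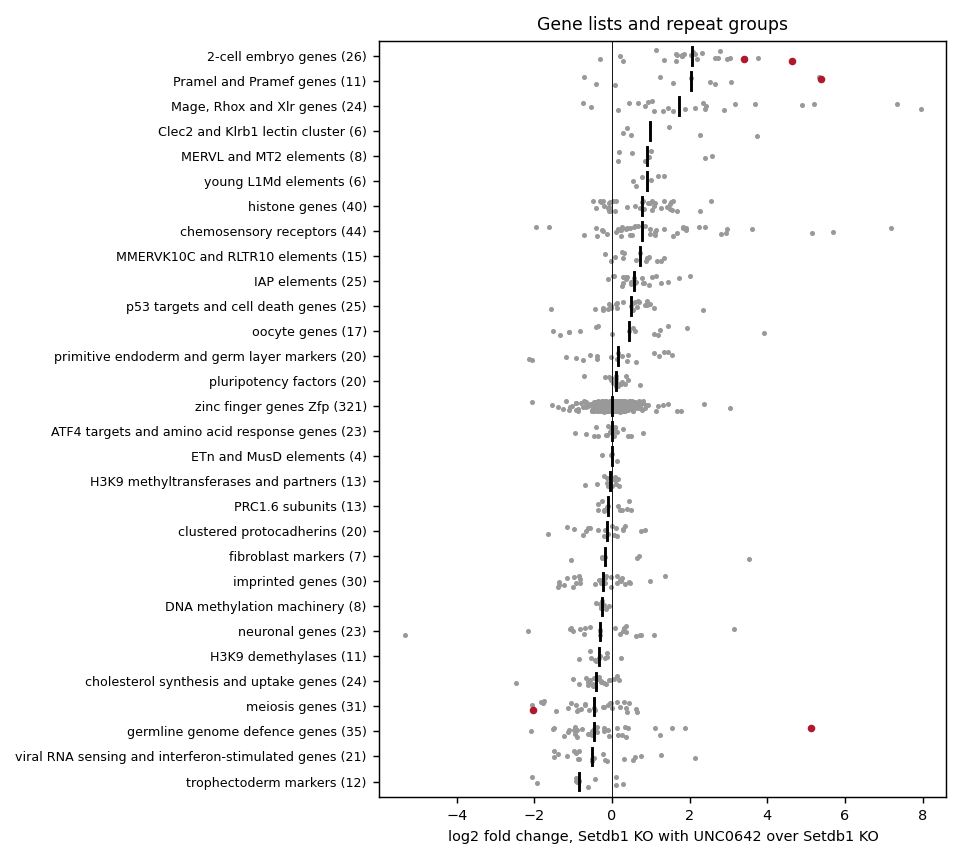
Log2 fold change on adding UNC0642 to Setdb1 KO mESCs for the tested members of each gene list and repeat group, with the number tested in brackets; grey points did not pass, red points were called and black bars are medians. The lists of 2-cell embryo, Pramel and Pramef, and Mage, Rhox and Xlr genes have medians between 1.72 and 2.06, and trophectoderm markers lie lowest at -0.86.

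None of the 13 H3K9 methyltransferases and partners, 13 PRC1.6 subunits, 8 DNA methylation genes or 11 H3K9 demethylases was called by edgeR or DESeq2, and 0, 0, 0 and 0 were higher and 1, 0, 0 and 1 lower at an unadjusted p under 0.05. Their medians were -0.05, -0.11, -0.27 and -0.32, the first of which turned to 0.03 under another scaling. The pairs differed: the median log2 ratios of CPM plus 0.1 in replicates 1 and 2 were 0.10 and -0.26, -0.14 and 0.03, -0.04 and -0.53, and -0.01 and -0.54, in the same order of lists. The 20 pluripotency factors had a median of 0.11, with -0.17 and 0.28 in the pairs, and 0 were called by either tool or reached an unadjusted p under 0.05. Of 12 trophectoderm markers, 0 were called by edgeR and 1 by DESeq2, and 3 were lower at an unadjusted p under 0.05. In both pairs 9 were lower, against 34.2% of all genes. Eomes, a transcription factor of trophectoderm and mesendoderm, was at 41.5 and 12.4 CPM without and 9.86 and 3.05 CPM with UNC0642 (-2.07 ± 0.46, adjusted p = 0.155). Among 20 primitive endoderm and germ layer markers, 0 were called by edgeR, and DESeq2 called 2 higher and 1 lower. At an unadjusted p under 0.05, 3 were higher and 2 lower, one of the lower being Eomes. In both pairs 5 were higher and 4 lower, and the median was 0.15. The neural gene Sox1 was at 2.67 and 8.37 CPM without and 7.06 and 25.8 CPM with the inhibitor (1.53 ± 0.36, adjusted p = 0.172, edgeR). Its difference between replicates was as large as that between treatments.

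Among 25 p53 targets and cell death genes, 0 were called by edgeR and 2 by DESeq2, 6 were higher and 1 lower at an unadjusted p under 0.05, and the median was 0.48, against -0.40 for UNC0642 in WT mESCs. The kinase gene Plk2 was at 56.5 and 43.5 CPM without and 119 and 93.2 CPM with UNC0642 (1.09 ± 0.29, adjusted p = 0.204), and for 6 members the interaction lay above 0 at an unadjusted p under 0.05. Of 24 cholesterol synthesis and uptake genes, 0 were called by either tool and 4 were lower at an unadjusted p under 0.05. In both pairs 18 were lower, against 34.2% of all genes, with a median of -0.42 (-0.82 in WT mESCs). Of 21 viral RNA sensing and interferon-stimulated genes, 0 were called by either tool, 2 were higher and 4 lower at an unadjusted p under 0.05, and the median was -0.51. Stat2, a mediator of interferon signalling, was at 25.9 and 38.8 CPM without and 13.9 and 18.8 CPM with UNC0642 (-0.97 ± 0.31, adjusted p = 0.297). Of 40 histone genes, 0 were called by edgeR and 2 by DESeq2, 6 were higher at an unadjusted p under 0.05, and the median was 0.78, with pair medians of 0.14 and 0.75. Their summed level was 60.8 and 202 CPM without and 67.6 and 312 CPM with UNC0642, a larger difference between replicates than between treatments. Of 44 tested chemosensory receptors, out of 1506 in the files, 0 were called by edgeR and 3 by DESeq2, 11 were higher and 0 lower at an unadjusted p under 0.05, and the median was 0.76.

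None of 23 neuronal genes, 7 fibroblast markers, 23 ATF4 targets, 30 imprinted genes, 6 Clec2 and Klrb1 genes, 20 clustered protocadherins and 321 Zfp zinc finger genes was called by edgeR. At an unadjusted p under 0.05, 1, 1, 0, 2, 2, 0 and 11 were higher and 3, 0, 0, 2, 0, 1 and 10 lower. DESeq2 called 1 neuronal gene lower and 5 Zfp genes higher, and none in the other 5 lists. Over the 15313 genes tested it called 269 higher and 121 lower. The Zfp counts did not exceed these shares, nor the 4.94% higher and 5.77% lower at an unadjusted p under 0.05 in edgeR. Zfp558 was at 15.1 and 5.67 CPM without and 83.8 and 26.4 CPM with UNC0642 (2.36 ± 0.39, adjusted p = 0.0809). The median of the Zfp list was 0.00 and its sign turned with the scaling.

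Transposable elements took 11.7% and 9.22% of the counts in Setdb1 KO mESCs and 17.1% and 11.4% after UNC0642 was added to them, against 3.70% and 2.77% in WT and 5.46% and 3.93% in UNC0642-treated mESCs. The share was higher with UNC0642 in both pairs, and the ranges of the KO libraries overlapped. TEtranscripts sums all copies of a subfamily, so a count can include reads from transcripts that run through a copy. MER121, an old element listed under the DNA transposons, was at 7.37 and 2.31 CPM in Setdb1 KO mESCs and at 53.4 and 34.6 CPM with UNC0642 (3.38 ± 0.38, adjusted p = 0.0205, edgeR). ORR1A1-int, the internal part of a MaLR element, was at 141 and 43.1 CPM without and 539 and 309 CPM with it (2.35 ± 0.31, adjusted p = 0.0394, edgeR). Both treated libraries lay above both untreated ones in each case, as for 12.8% of all subfamilies tested. These libraries also gave the calls, so the separation is no independent support. In WT mESCs these subfamilies went from 0.435 and 0.217 to 1.41 and 0.432 CPM and from 21.5 and 14.7 to 63.6 and 33.9 CPM. No subfamily was called lower by edgeR or DESeq2.

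Across all 932 subfamilies the median log2 fold change was 0.16, with 44.2% higher and 19.7% lower in both pairs. At an unadjusted p under 0.05 in edgeR 10.3% were higher, and DESeq2 with the block called 29 of the 932 higher. Among the families of LTR retrotransposons, ERV1 (103 subfamilies) lay at 0.28, ERVK (273) at 0.27, ERVL (94) at 0.18, ERVL-MaLR (87) at 0.17, Gypsy (11) at 0.04 and those listed as LTR (5) at -0.18, while L1 (127) lay at 0.21. The 63 hAT-Charlie DNA transposons lay at -0.08 and the 16 Alu-related SINE subfamilies at -0.19, with 0 higher and 13 lower in both pairs. MERVL-int, the retrovirus whose LTR drives genes of the 2-cell embryo, was at 97.9 and 270.3 CPM in WT, 5523 and 2235 CPM in UNC0642-treated, 1917 and 709 CPM in Setdb1 KO, and 11090 and 4365 CPM in UNC0642-treated Setdb1 KO mESCs. Its change in Setdb1 KO mESCs was 2.57 ± 0.65 and did not pass (adjusted p = 0.192). Of the 8 MERVL and MT2 subfamilies, all 8 were higher in both pairs and 6 at an unadjusted p under 0.05, 0 were called by edgeR and 3 by DESeq2, and the median was 0.90.

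The targets of SETDB1 among endogenous retroviruses stood high in Setdb1 KO mESCs before the inhibitor was added. MMERGLN-int, an ERV1 element, was at 793 and 747 CPM in WT, 625 and 692 CPM in UNC0642-treated, 8624 and 8009 CPM in Setdb1 KO and 26194 and 16627 CPM in UNC0642-treated Setdb1 KO mESCs. With UNC0642 both KO libraries were above both untreated ones (1.35 ± 0.27, adjusted p = 0.126). Of 25 IAP subfamilies, 8 were higher at an unadjusted p under 0.05 and 19 in both pairs, 0 were called by edgeR and 3 by DESeq2, and the median was 0.57. The summed IAP level moved in opposite directions in the pairs, at 6810 and 9301 CPM without and 14064 and 8487 CPM with UNC0642, and the ERVK family, which holds the IAPs, took 3.14% and 3.87% of the counts without and 4.44% and 3.18% with it. IAP-d-int was at 70.3 and 90.3 CPM without and 276 and 173 CPM with UNC0642 (1.44 ± 0.28, adjusted p = 0.126). Of 15 MMERVK10C and RLTR10 subfamilies, 6 were higher at an unadjusted p under 0.05, 0 were called by edgeR and 1 by DESeq2, and the median was 0.71. Their summed level also moved in opposite directions, at 7476 and 10129 CPM without and 11180 and 6837 CPM with UNC0642, and MMERVK10C-int, named because it was the lowest of the 15, stood at -0.18 (adjusted p = 0.914, edgeR). The 4 ETn and MusD subfamilies had a median of -0.01, whose sign turned with the scaling, and 0 were called by either tool or reached an unadjusted p under 0.05. All 6 young L1Md subfamilies were higher in both pairs and at an unadjusted p under 0.05, with a median of 0.89, and 0 were called by either tool. L1Md_T was at 17999 and 5062 CPM without and 36913 and 13556 CPM with UNC0642 (1.19 ± 0.39, adjusted p = 0.306), a difference smaller than that between replicates.

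**Figure D5:**
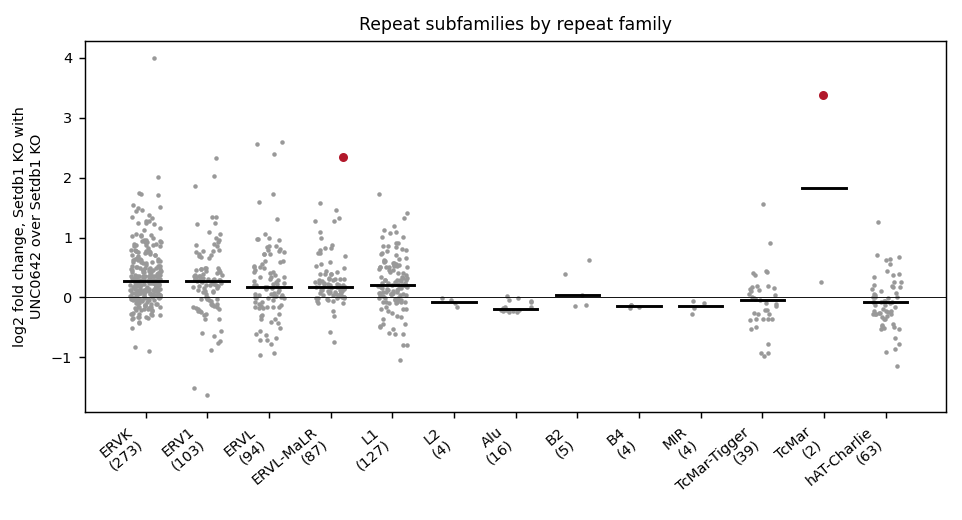
Log2 fold change on adding UNC0642 to Setdb1 KO mESCs for transposable element subfamilies by repeat family, with the number tested in brackets; red points were called and black bars are medians. ERVK, ERV1, ERVL, ERVL-MaLR and L1 have medians between 0.17 and 0.28 and Alu lies at -0.19, with MER121 (TcMar) and ORR1A1-int (ERVL-MaLR) as the red points.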

How the data were processed

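Poly(A) RNA was sequenced from 8 mESC libraries, 2 per condition. The authors trimmed reads with Trim Galore (0.3.7), mapped them with TopHat2 to mm10 and counted them with TEtranscripts, which gave the deposited tables of unnormalized counts for genes and repeat subfamilies. TEtranscripts was run with default parameters. From these counts, R (4.3.3) with edgeR (4.0.16) kept features by filterByExpr (minimum count 10, minimum total count 15), scaled libraries by TMM (factors from 0.810 to 1.20), and fitted all 8 libraries with 1 coefficient per condition and the replicate number as a block (prior count 0.125, threshold 0.05 after Benjamini-Hochberg adjustment over genes and subfamilies). SEs came from the F statistic. The labels do not say that a number marks a shared day or culture. The same-numbered libraries of 2 conditions deviated together, with r between 0.285 and 0.663 across genes for all 6 pairs of conditions. Precision follows the totals of 11702590 to 26807807 counts, and floors cover counting error only. Gene positions and promoters came from RefSeq (GRCm38.p6). The scripts were tested on simulated data. DESeq2 (1.42.0), other scalings, filters and sets of libraries served as alternatives.

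Named genes were Setdb1, Ehmt1, Ehmt2, the 3 genes of the study, and the genes and subfamilies called or next by p. Up to 4 members per list by p and the 5 smallest interaction p-values were also named, with exceptions named as such. Armcx5, Gprasp1, Gprasp2, Bhlhb9, Arxes1, Arxes2, Bex2, Bex4, Nxf7, 1700008I05Rik, Mir7646 and Mir1970 were named for their position after their values were seen. The members and lists were chosen with earlier results of these data known.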

Additional observations from a re-analysis of the deposited data

Results flagged for a closer look

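In 5 named features the libraries moved in opposite directions when UNC0642 was added to Setdb1 KO and to WT mESCs, in both replicate pairs of each. The differences are given as the interaction of edgeR's fit, and none passed after adjustment over all features. The lipase-related gene Pnliprp2 had an interaction of 5.58 (unadjusted p = 0.000303), with 8 and 6 counts in Setdb1 KO mESCs and 165 and 104 counts with UNC0642. For Pkp2 the interaction was 1.82 (unadjusted p = 0.000329), and DESeq2 called it and Pnliprp2. For the neuronal tubulin gene Tubb3 the interaction was 1.34 (unadjusted p = 0.00254), and its replicates differed by more than its treatments. For MMERGLN-int it was 1.57 (unadjusted p = 0.00252), and for the p53 target Btg2 it was 1.14 (unadjusted p = 0.0177).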

How the results depend on the processing

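The labels give the conditions the same replicate numbers, and the block on that number decided the calls: without it edgeR called 0 genes higher, 0 lower and 0 subfamilies in UNC0642-treated Setdb1 KO over Setdb1 KO mESCs, and 0 genes in UNC0642-treated over WT mESCs. In the main comparison, genes higher, genes lower and subfamilies higher numbered 92, 14 and 9 with no expression filter; 269, 121 and 29 with DESeq2 and the block; 89, 12 and 2 with DESeq2 without it, a setting added after seeing the data; 428, 219 and 52 with edgeR, and 315, 127 and 41 with DESeq2, on the 4 libraries with the block; and 0, 0 and 0 with edgeR, and 101, 6 and 4 with DESeq2, on the 4 libraries without it. At a fold change above 10, 0 genes were lower and 1 subfamily was higher. With 1 library left out, the lone library of a condition being assumed to vary like the others, they ranged from 0 to 200, from 0 to 43 and from 0 to 23. Leaving out UNC replicate 1 or 2 left 1 subfamily called. In UNC0642-treated over WT mESCs, 107 genes were higher with no filter, 221 and 115 with DESeq2 with and without the block, 255 and 0 with edgeR and 211 and 89 with DESeq2 on 4 libraries with and without it, and from 3 to 91 with 1 library left out. The interaction gave 1 feature with no filter, 7 and 1 with DESeq2 with and without the block, and from 0 to 22 with 1 library left out, the 22 without WT replicate 2.

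The median change in WT mESCs of the 18 genes was between 2.53 and 3.20 with 1 library left out. Total counts normalization moved the median of all genes by -0.11 and those of ERVK to 0.16, ERV1 to 0.18, ERVL to 0.081, ERVL-MaLR to 0.069 and L1 to 0.10, and with it 615 genes were higher and 1196 lower at an unadjusted p under 0.05, against 939 and 691 with factors from genes only. With 1 library left out, the medians ranged from 0.084 to 0.36 for ERV1, from 0.053 to 0.38 for ERVL, from 0.079 to 0.32 for ERVL-MaLR (without KO replicate 2 and KO replicate 1) and from 0.14 to 0.34 for L1. Of the named features, Setdb1 (0.26 and 0.21 without KO replicate 2 and KO_UNC replicate 2, range -0.47 to 0.26) and Ehmt1 (0.11 without KO_UNC replicate 2, range -0.29 to 0.11) changed sign. The cause of these differences was not tested. At the smallest depth, 3 counts are 0.311 CPM, and levels near or below that carry wide counting error.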

Other observations

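A group of genes chosen after their values were seen, and so given with no claim, was lower in both Setdb1 KO pairs on adding UNC0642. Over all genes tested, 34.2% were lower in both pairs. Having been picked by its values, the group does not show a shared fall. The prolyl hydroxylase Egln3 was at 33.8 and 165 CPM without and at 6.96 and 13.7 CPM with the inhibitor (-3.20 ± 0.83, adjusted p = 0.2, edgeR). The mitophagy receptor Bnip3 was at 147 and 276 CPM without and 39.2 and 55.6 CPM with it, and Ndufa4l2, a mitochondrial protein, at 3.51 and 22.9 CPM without and 0.104 and 1.47 CPM with it. The lactate transporter Slc16a3 was at 27.4 and 152 CPM without and 6.85 and 25.2 CPM with it (-2.34 ± 0.44, adjusted p = 0.121, edgeR). Lactate dehydrogenase Ldha was at 364 and 831 CPM without and 162 and 235 CPM with it, and the glucose transporter Slc2a1 at 313 and 1078 CPM without and 183 and 368 CPM with it. The replicates differed widely in each condition, the libraries of Slc16a3 did not overlap, and those of Slc2a1 did. None of these 6 genes passed in edgeR's fit of all 8 libraries.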
